A study of Mus musculus with 12 samples.

Results

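The genes described here form the core of major histocompatibility complex (MHC) class I presentation and the immunoproteasome. They are the class I heavy chains H2-K1 and H2-D1, the light chain B2m, the peptide transporter subunits Tap1 and Tap2, the loading chaperone Tapbp, the transactivator Nlrc5 and the inducible catalytic subunits Psmb8, Psmb9 and Psmb10. The 10 genes were listed by name, and each was represented by its brightest probe set among those that name a single gene. Of the 10 listed, 8 had such a probe set, among 16426 genes measured in that way, and those 8 also passed the filter on low signal that left 8918 genes for testing. H2-K1 and H2-D1 appeared only in 2 probe sets that name both genes together with another locus, so neither received a value of its own.

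MHC class I molecules carry short peptides to the cell surface, where CD8 T cells and natural killer cells read them. The peptides are cut in the cytosol by the proteasome, and under interferon, or in many immune cells, its constitutive catalytic subunits are replaced by those that Psmb8, Psmb9 and Psmb10 encode. Peptides then pass through the Tap1 and Tap2 transporter and are loaded with the help of tapasin, the product of Tapbp. They are held by a heavy chain paired with beta-2 microglobulin. Nlrc5 acts as a transactivator of class I genes.

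Expression in mouse CD4+ T cells was profiled on 12 Affymetrix ST1.0 arrays, 2 for each of 6 groups. The design compares mutant forms of Foxp3, the transcription factor of regulatory T cells (Tregs), in cells taken from mice and in conventional T cells given Foxp3 by retrovirus. The labels give every sample as spleen of male C57Bl/6 mice 6 weeks old.

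In the Treg groups the genotypes were Foxp3(M354/M354), Foxp3(M176/M176) and Foxp3(WT/WT), and the cells were sorted as CD4+TCRb+CD25+. In the transduced groups, WT conventional T cells received M354, M176 or WT Foxp3 and were sorted as CD4+TCRb+THY1.1+, the Thy1.1 marking the cells to be kept. All transduced groups therefore carry viral Foxp3 on a WT background, and none of them was transduced without Foxp3. Which residues M354 and M176 alter is not stated in the labels. Nor do the labels tell whether both arrays of a group stem from different mice or cultures, so a p-value here reflects array-to-array spread that could be purely technical.

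Foxp3, the gene that was altered, averaged 5738 ± 358 in M354 Tregs, 3381 ± 85.5 in M176 Tregs and 5620 ± 414 in WT Tregs (linear intensity, SD, n = 2 each). It fell by 0.73 on the log2 scale in M176 Tregs against WT Tregs (limma adjusted p = 0.000552), and no transduced group differed from another at an adjusted p under 0.05. Small nucleolar and Cajal body RNA genes stood apart on some arrays: their mean log2 intensity was 9.98 and 10.04 in M176 Tregs, against 8.66 and 8.78 in M354 Tregs and 8.74 and 8.87 in WT Tregs. In transduced cells the same mean was uneven within each group, at 9.64 and 8.75 with M354, 8.86 and 9.46 with M176 and 8.61 and 9.18 with WT Foxp3. The summed intensity of 11 B cell markers ranged from 2283 to 2295 in M354 Tregs, 1844 to 1894 in M176 Tregs and 1949 to 4414 in WT Tregs, where replicate 2 was the high array, and from 4105 to 4664 in transduced cells. That of 7 CD8 T and NK cell markers ranged from 2748 to 3206 in M354 Tregs, 1576 to 1906 in M176 Tregs and 1812 to 1995 in WT Tregs, and from 4053 to 4987 in transduced cells. Of these markers 5 were tested, and in M354 Tregs against WT Tregs only 1 was above 0. It was called at a log2 difference of 1.01, beside 0.886% of all genes higher, while the median of the 5 was -0.10 and the lowest -0.38. Dendritic cell markers summed to 976.6 to 1166 in M354 Tregs, 790.8 to 876.8 in M176 Tregs and 962.1 to 1013 in WT Tregs, and myeloid markers to between 334.5 and 419.8 on all arrays. T cell markers, 6 of 9 on the array, summed to 26760 to 29350 in M354 Tregs, 24170 to 25770 in M176 Tregs and 28090 to 28840 in WT Tregs, and to between 22950 and 25340 in transduced cells. Treg markers, 6 of 8 on the array, summed to 23820 to 24360 in M354 Tregs, 19260 to 19860 in M176 Tregs and 26960 to 28760 in WT Tregs, and 5 of the 6 were called lower in M176 Tregs against WT Tregs, with a median log2 difference of -0.52, where 11.3% of all genes tested were lower. In transduced cells the Treg markers summed to 19440 to 20880 with M354, 23010 to 23380 with M176 and 27460 to 28680 with WT Foxp3. The part of the marker differences in the results was not tested. For comparisons with M176 Tregs, values without the WT Treg array of high B cell markers, or with the small RNA level in the model, are given for some of the genes called. Among Tregs the small RNA level was high on the M176 arrays alone, so that model cannot separate the level from the M176 group.

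Within the genome 4 of the genes lie side by side in the MHC on mouse chromosome 17 (build GRCm38.p6, as annotated by RefSeq): Psmb9 at 34182030 to 34187330, Tap1 at 34187556 to 34197225, Psmb8 at 34198195 to 34201454 and Tap2 at 34204479 to 34216321. Tapbp lies on the same chromosome at 33919478 to 33929290. Psmb10, at 105935728 to 105938392, and Nlrc5, at 94434335 to 94527272, are on chromosome 8, and B2m, at 122147687 to 122153082, is on chromosome 2.

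Psmb9 and Tap1 are transcribed in opposite directions from starts 225 bases apart, so their upstream windows are largely the same DNA. The 250 bases before the RefSeq start are shown for that shared window, for Psmb8 and Psmb10, which moved together with Psmb9 in M176 Tregs, and for B2m, which did not pass the test there. Capitals mark matches to 3 short motifs searched on both strands: the gamma-activated site TTCNNNGAA, the interferon-stimulated response element core (GAAA, any 2 bases, GAAA), and the CCAAT box, CCAAT. The windows were chr17:34187306-34187555 on the plus strand for Tap1, chr17:34197945-34198194 on the plus strand for Psmb8, chr8:105938393-105938642 on the minus strand for Psmb10 and chr2:122147437-122147686 on the plus strand for B2m.
Tap1: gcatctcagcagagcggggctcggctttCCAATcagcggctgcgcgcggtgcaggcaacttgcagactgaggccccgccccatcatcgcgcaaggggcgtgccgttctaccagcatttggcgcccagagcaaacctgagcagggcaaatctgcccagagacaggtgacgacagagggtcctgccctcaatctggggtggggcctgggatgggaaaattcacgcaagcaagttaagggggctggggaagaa
Psmb8: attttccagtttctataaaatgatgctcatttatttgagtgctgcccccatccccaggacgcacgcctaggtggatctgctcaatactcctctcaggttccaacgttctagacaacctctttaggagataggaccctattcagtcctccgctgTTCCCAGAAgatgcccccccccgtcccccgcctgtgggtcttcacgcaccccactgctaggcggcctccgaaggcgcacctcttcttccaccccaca
Psmb10: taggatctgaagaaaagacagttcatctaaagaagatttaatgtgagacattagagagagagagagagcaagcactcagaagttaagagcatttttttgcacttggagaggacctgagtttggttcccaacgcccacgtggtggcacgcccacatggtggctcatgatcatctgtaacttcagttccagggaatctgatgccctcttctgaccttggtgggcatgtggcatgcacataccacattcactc
B2m: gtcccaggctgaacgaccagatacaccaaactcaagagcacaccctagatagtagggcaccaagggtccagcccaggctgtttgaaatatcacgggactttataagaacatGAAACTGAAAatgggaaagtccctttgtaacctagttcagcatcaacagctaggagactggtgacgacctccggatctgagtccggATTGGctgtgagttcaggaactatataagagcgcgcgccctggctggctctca

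The Tap1 window held a CCAAT box at -222 to -218 from the Tap1 start, and the same bases stand at -8 to -4 before the start of Psmb9. In the Psmb8 window a TTCNNNGAA match stood at -97 to -89. The B2m window had a response element core match at -139 to -130 and a CCAAT box on the reverse strand at -53 to -49, and the Psmb10 window had no match to any of the 3 motifs. Among 32851 promoter windows of the same length, 7.02% held TTCNNNGAA, 2.98% held the response element core and 33.8% held CCAAT. A match describes letters in these windows and is no evidence of binding. Of the 10 listed genes 8 had a window in the RefSeq table used, all but Tap2 and Nlrc5.

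Most of these genes were bright in all 6 groups. B2m ranked between percentiles 99.5 and 99.8 of all probe sets on each array, and Tap1, Tapbp and Nlrc5 between 93.6 and 97.5. Tap2 ranked between 79.5 and 84.4. The immunoproteasome subunits spanned wider ranges, 84.9 to 93.2 for Psmb8, 84.3 to 93.2 for Psmb9 and 89.4 to 96.6 for Psmb10. These percentiles describe probe sets on one array and do not order the genes by amount of transcript.

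**Figure D1:**
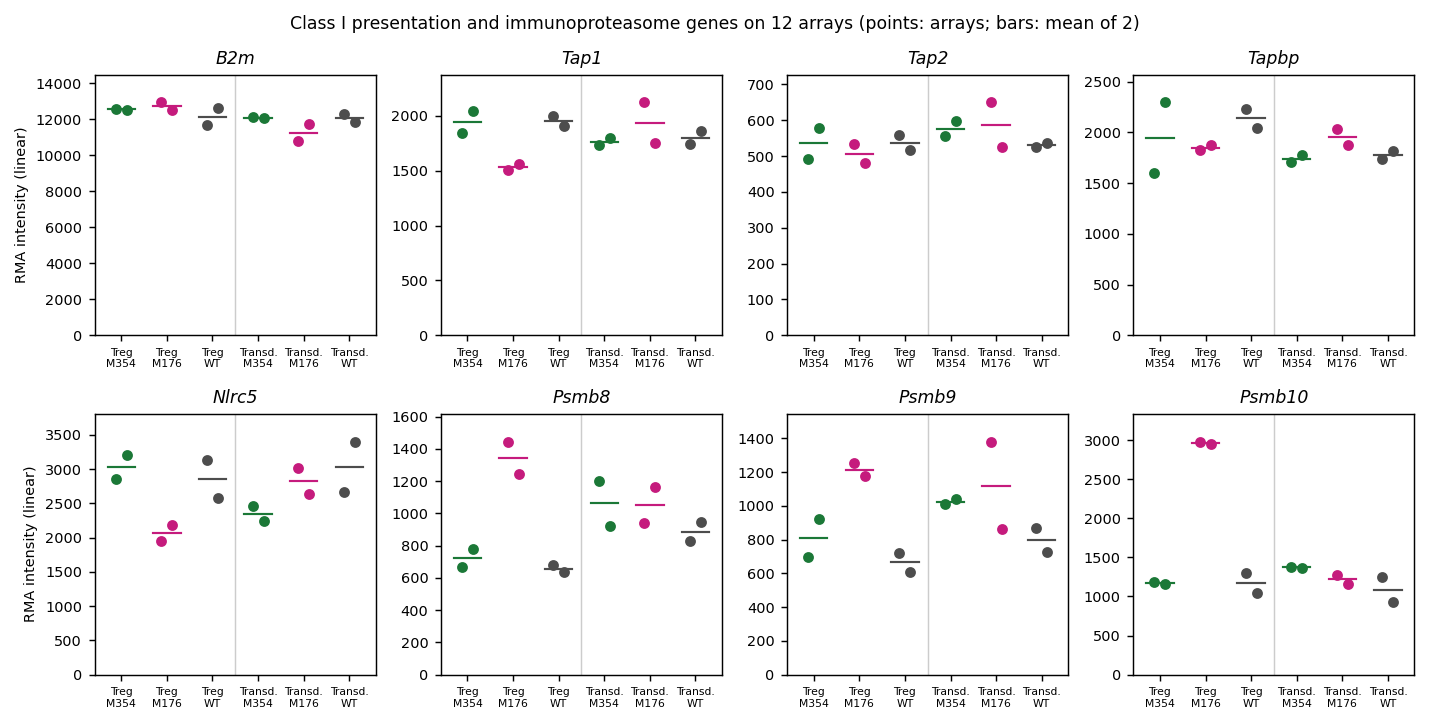
RMA intensity of each of the 8 measured genes on a linear axis from 0, with 1 point per array, a bar at the mean of 2 arrays, and the groups along the horizontal axis in the order M354, M176 and WT, Tregs before transduced cells. Psmb10 stood at 2982 and 2948 in M176 Tregs and at or below 1383 on the other 10 arrays, while B2m stayed between 10760 and 12920 on all 12.

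In M176 Tregs the 3 immunoproteasome subunits rose together, Psmb10 by 2.55-fold, Psmb8 by 2.05-fold and Psmb9 by 1.83-fold against WT Tregs. Nlrc5 fell in the same cells, to 0.727 of its WT level. The transporter, chaperone and light chain genes did not pass the test, and neither did the probe sets of the heavy chains. Thus 3 of the 8 genes were higher and 1 lower at an adjusted p under 0.05, in a comparison in which 24.7% of all tested genes passed, 13.4% higher and 11.3% lower. The median log2 change over the 8 genes was -0.01, beside -0.04 over all genes tested. In bulk samples such as these, fewer cells of a type and less RNA per cell cannot be told apart.

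Psmb10 encodes the inducible subunit with trypsin-like activity. Its intensity was 2982 and 2948 in M176 Tregs, against 1298 and 1046 in WT Tregs. Both M176 arrays lay far above both WT arrays, a separation upwards that 30.3% of all genes tested showed, and the M176 pair differed little from each other. The log2 difference was 1.35 (SE 0.15, 95% interval 1.03 to 1.67, limma adjusted p = 1.3e-05). It remained called in all 20 alternative analyses, between 1.11 and 1.63.

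Psmb8 encodes the inducible subunit with chymotrypsin-like activity. It was measured at 1444 and 1247 in M176 Tregs, against 677.5 and 634.5 in WT Tregs, again with no overlap. The log2 difference was 1.03 (SE 0.16, 95% interval 0.70 to 1.37, adjusted p = 0.000209). With the level of small nucleolar RNAs as a covariate it was 0.53 and no longer passed (adjusted p = 0.191), whereas Psmb10 and Psmb9 then differed by 1.63 and 1.34 (adjusted p = 0.00239 and 0.0205).

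Psmb9, the third inducible subunit, read 1252 and 1178 in M176 Tregs, against 722.2 and 609 in WT Tregs. The arrays of both groups were separate. The log2 difference was 0.87 (SE 0.19, 95% interval 0.47 to 1.27, adjusted p = 0.00324). Without WT Treg replicate 2, the array with the high B cell markers, the differences were 1.19 for Psmb10, 0.99 for Psmb8 and 0.75 for Psmb9, each still called (adjusted p = 0.000283, 0.00264 and 0.033).

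Tap1, whose promoter window is shared with Psmb9, did not follow it. Its intensity was 1511 and 1559 in M176 Tregs, against 1998 and 1910 in WT Tregs. Both M176 arrays were the lower ones, and the log2 difference of -0.35 (SE 0.13, 95% interval -0.62 to -0.07) narrowly missed the threshold (adjusted p = 0.0603). After quantile normalization it was -0.45 (adjusted p = 0.017) and after cyclic loess -0.42 (adjusted p = 0.0245), so the call depends on the normalization.

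Tap2, the other subunit of the transporter, differed by -0.09 (95% interval -0.38 to 0.21, adjusted p = 0.671) with overlapping arrays, 532.9 and 479.4 in M176 Tregs against 560.1 and 515.7 in WT Tregs. Tapbp differed by -0.21 (95% interval -0.53 to 0.11, adjusted p = 0.329), at 1824 and 1872 in M176 Tregs against 2229 and 2049 in WT Tregs, with both M176 arrays below both WT arrays. Such separation downwards was seen for 37.3% of all genes tested in this comparison. B2m was close in both groups, at 12920 and 12520 in M176 Tregs against 11670 and 12610 in WT Tregs, a log2 difference of 0.07 (95% interval -0.19 to 0.32, adjusted p = 0.708).

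The heavy chains could be followed only through the 2 probe sets that name H2-K1 and H2-D1 together. The first read 7570 and 7486 in M176 Tregs, against 6949 and 6513 in WT Tregs, a log2 difference of 0.16 (adjusted p = 0.345 over all probe sets tested). The second read 5724 and 5260 in M176 Tregs, against 5879 and 5550 in WT Tregs, a difference of -0.06 (adjusted p = 0.765). Neither probe set passed in any of the 9 comparisons, and signal of one heavy chain cannot be told from that of the other.

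Nlrc5 is the member of the NOD-like receptor family that acts as a class I transactivator. Its brightest probe set read 1955 and 2182 in M176 Tregs, against 3134 and 2578 in WT Tregs. The M176 arrays were both lower, with a log2 difference of -0.46 (SE 0.15, 95% interval -0.78 to -0.14, adjusted p = 0.0341). Without WT Treg replicate 2, the array with the high B cell markers, the difference was -0.60. The call was lost in 6 of 20 alternatives, with the difference between -0.28 and -0.61. It was -0.38 without M176 Treg replicate 1 (adjusted p = 0.229), -0.54 without M176 Treg replicate 2 (0.0637), -0.32 without WT Treg replicate 1 (0.259), -0.46 with the replicate block (0.0588) and -0.61 with the small RNA covariate (0.192), and the sixth case is the mean of its probe sets.

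The array carries 19 probe sets that name Nlrc5 alone, each of which was tested on its own. In M176 Tregs against WT Tregs 18 of the 19 differences were below 0, beside 52.3% of all probe sets tested. Their median was -0.25 and their range -0.68 to 0.31. Only 5 of them passed the test, all lower, where 10.4% of all probe sets tested passed in that direction and 15.4% in the other. The widest of these read 1428 and 1609 in M176 Tregs, against 2566 and 2290 in WT Tregs (log2 -0.68, SE 0.13, adjusted p = 0.0024). Probe sets of one gene share the same RNA and are not replicates, and the mean of all 19 did not pass (log2 -0.28, adjusted p = 0.135).

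**Figure D2:**
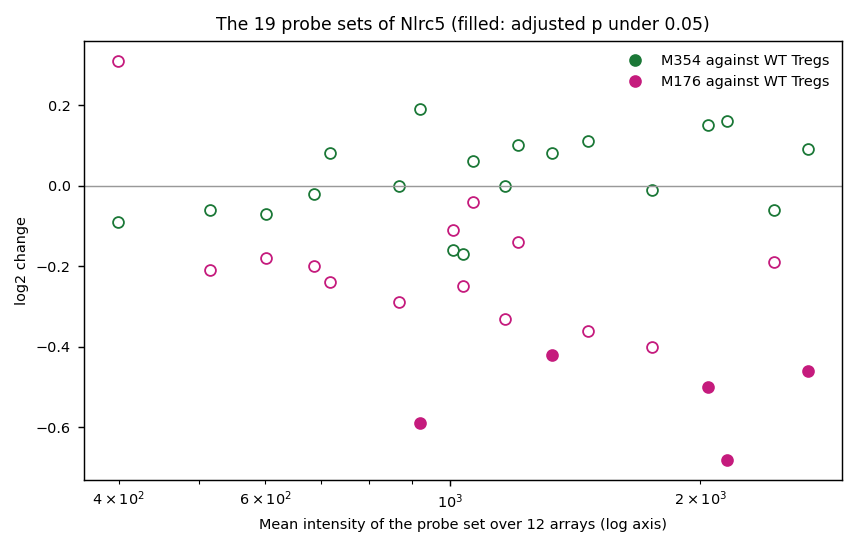
Log2 difference of each of the 19 Nlrc5 probe sets in M354 Tregs and M176 Tregs, each against WT Tregs, plotted over the mean intensity of the probe set on 12 arrays (log axis), with filled points for probe sets that passed at an adjusted p under 0.05. For M176 the values run from -0.68 to 0.31 with 18 below 0, beside 52.3% of all probe sets tested. For M354 they run from -0.17 to 0.19 with none called, beside 2.69% of all probe sets tested.

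In M354 Tregs against WT Tregs none of the 8 genes passed with limma, and none had an unadjusted p under 0.05, where 1.81% of all tested genes were called. The log2 differences lay between -0.16 for Tapbp and 0.28 for Psmb9, with a median of 0.03 beside -0.04 over all genes. The arrays of both groups overlapped for each gene, whereas 13.1% of all genes tested were separate upwards and 24.6% downwards.

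Among the immunoproteasome subunits, Psmb10 read 1188 and 1160 in M354 Tregs, against 1298 and 1046 in WT Tregs, a difference of 0.01 (95% interval -0.31 to 0.33). Psmb8 read 668.6 and 778.1 in M354 Tregs, a difference of 0.14 from WT Tregs (95% interval -0.19 to 0.47), and Psmb9 read 697.3 and 924.1, a difference of 0.28 (95% interval -0.13 to 0.68). For all 3 subunits these intervals end below the point estimates in M176 Tregs. Those estimates have intervals of their own, and that of Psmb9, 0.47 to 1.27, overlaps its M354 interval. Nlrc5 read 2852 and 3202 in M354 Tregs and differed from WT Tregs by 0.09 (95% interval -0.23 to 0.41), and Tap1 read 1849 and 2044 and differed by -0.01 (95% interval -0.28 to 0.27).

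The remaining M354 Treg values were 12550 and 12510 for B2m, 492.9 and 577.5 for Tap2, and 1597 and 2296 for Tapbp. The Tapbp arrays were further apart in this group than in the other 5. Both heavy chain probe sets were uncalled, the first at -0.11.

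The direct comparison of the alleles separated the same 4 genes. In M354 Tregs against M176 Tregs, 3 of the 8 genes were lower and 1 higher, where 30.8% of all tested genes passed, 18.1% lower and 12.7% higher. Psmb10 was lower in M354 Tregs by a log2 difference of -1.34 (SE 0.15, adjusted p = 7.9e-06), Psmb8 by -0.90 (SE 0.16, adjusted p = 0.000473) and Psmb9 by -0.60 (SE 0.19, adjusted p = 0.0252). Nlrc5 was higher by 0.55 (SE 0.15, adjusted p = 0.0112). All 4 had separate arrays, as 37.1% of all genes did downwards and 32.3% upwards. Of the 19 Nlrc5 probe sets, 7 were called higher and 1 lower, the latter at -0.40, beside 12.4% and 19% of all probe sets tested.

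With the small RNA level as a covariate the differences were -1.64 for Psmb10 and -1.09 for Psmb9, both called (adjusted p = 0.00205 and 0.0477), and -0.36 for Psmb8 and 0.71 for Nlrc5, neither called (adjusted p = 0.345 and 0.112). Nlrc5 also lost its call without M354 Treg replicate 2 (log2 0.47, adjusted p = 0.0712), without M176 Treg replicate 1 (log2 0.47, adjusted p = 0.111) and as the mean of its probe sets (log2 0.30, adjusted p = 0.0983). Psmb9 is the least settled: its call was lost without M354 Treg replicate 1 (log2 -0.39, adjusted p = 0.269), without either M176 Treg array (adjusted p = 0.139 and 0.0706), and after quantile (0.0725) or cyclic loess normalization (0.0554). Tap1 differed by 0.34 (95% interval 0.07 to 0.62, adjusted p = 0.0568), with both M354 arrays above both M176 arrays. It passed after quantile normalization (0.50, adjusted p = 0.00818), after cyclic loess (0.46, adjusted p = 0.0129) and without either M176-transduced array (0.34, adjusted p = 0.0489 for each). Tapbp, Tap2 and B2m differed by 0.05, 0.08 and -0.02. This comparison and that of M176 Tregs with WT Tregs share the M176 arrays, so their values are set side by side and are not independent.

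**Figure D3:**
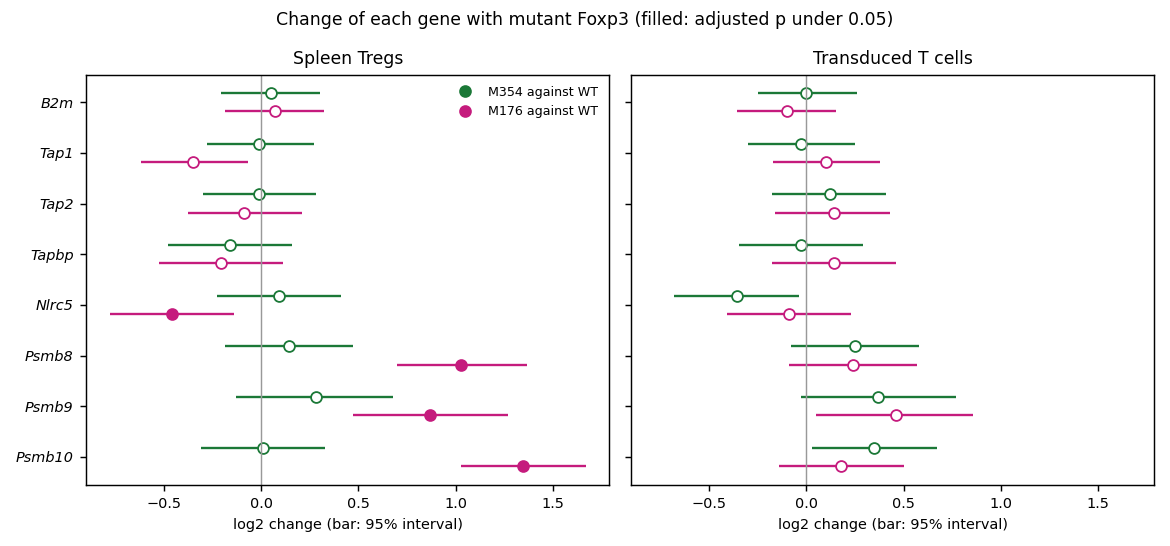
Log2 difference of each gene with its 95% interval, for M354 and M176 against WT, in Tregs (left) and transduced cells (right), filled where the adjusted p was under 0.05. The subunits Psmb8, Psmb9 and Psmb10 stand at 1.03, 0.87 and 1.35 in M176 Tregs, and no gene is filled in transduced cells.

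In transduced cells none of the 8 genes passed the test for either mutant allele. With M354 against WT Foxp3, limma called none of them, beside 1.33% of all tested genes, and 2 had an unadjusted p under 0.05, beside 1014 of 8918 genes tested. These were Psmb10, at 1383 and 1363 with M354 against 1251 and 924.9 with WT (log2 0.35, adjusted p = 0.371), and Nlrc5, at 2463 and 2240 with M354 against 2673 and 3401 with WT (log2 -0.36, adjusted p = 0.36). The groups were separate in both cases, and upwards for Psmb9 and Tap2 as well. Such separation held for 20.2% of all genes upwards and 17.1% downwards. Psmb9 read 1009 and 1042 with M354 against 868.5 and 727.1 with WT (log2 0.37, adjusted p = 0.498), and Psmb8 read 1203 and 921.7 with M354 against 828.7 and 945.5 with WT (log2 0.25, adjusted p = 0.622).

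All 19 Nlrc5 probe sets were below 0 in that comparison, between -0.36 and -0.07, and none was called. Over all probe sets tested 45.5% were below 0 and 0.895% were called, and the 19 share the same RNA. With M176 against WT Foxp3, again none of the 8 genes passed with limma, beside 0.516% of all genes, and 1, Psmb9, had an unadjusted p under 0.05, beside 527 of 8918 genes tested. Psmb9 read 1380 and 861.3 with M176 against 868.5 and 727.1 with WT (log2 0.46, 95% interval 0.05 to 0.86, adjusted p = 0.761), with overlapping arrays. Psmb8 read 942.9 and 1161 with M176, a difference of 0.24 from WT, and Psmb10 read 1278 and 1161, a difference of 0.18 (95% interval -0.14 to 0.50). Nlrc5 read 3025 and 2642 with M176 (log2 -0.09, adjusted p = 1).

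Tap1 read 1734 and 1799 with M354 and 2123 and 1756 with M176, against 1741 and 1863 with WT. Tap2, Tapbp and B2m differed from WT by between -0.03 and 0.12 with M354, and by between -0.10 and 0.14 with M176. With M176, B2m was separate downwards and Tapbp upwards, as were 16% and 13.4% of all genes. M354 against M176 in transduced cells gave log2 differences from -0.27 for Nlrc5 to 0.17 for Psmb10, none of them called and none with an unadjusted p under 0.05, beside 0.0785% of all genes called. Separate arrays were seen upwards for B2m and Psmb10 and downwards for Tapbp and Nlrc5, as for 20.1% and 13.1% of all genes.

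Whether the effect of M176 differed between Tregs and transduced cells was tested as a difference of differences. It passed for 2 of the 8 genes, both higher, where 5.49% of all tested genes passed, 4.03% higher and 1.47% lower. The effect of M176 on Psmb10 was greater in Tregs by 1.17 on the log2 scale (SE 0.21, 95% interval 0.72 to 1.62, adjusted p = 0.0045), and this held in all 19 alternatives, between 0.89 and 1.39. For Psmb8 the effect was greater by 0.79 (SE 0.22, 95% interval 0.32 to 1.26, adjusted p = 0.046), a call lost in 11 of 19 alternatives, among them without either M176 Treg array (adjusted p = 0.219 and 0.0579), either WT Treg array (0.0773 and 0.11), M176-transduced replicate 1 (0.213) or WT-transduced replicate 2 (0.102). Psmb9 did not pass (0.42, 95% interval -0.15 to 0.98, adjusted p = 0.403), nor did Tap1 (-0.45, adjusted p = 0.171) or Nlrc5 (-0.37, adjusted p = 0.343).

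For M354 no gene of the 8 differed between the systems by limma's test or at an unadjusted p under 0.05, beside 1.08% of all genes called. The widest value was that of Nlrc5, 0.45 (adjusted p = 0.616). Foxp3 itself was lower in M176 Tregs but not called with M176 in transduced cells (difference of differences -0.58, adjusted p = 0.0662), and its part in the difference between the systems was not tested.

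Between WT Tregs and WT-transduced cells Psmb8 alone passed, at 677.5 and 634.5 in WT Tregs against 828.7 and 945.5 in WT-transduced cells (log2 -0.43, SE 0.16, adjusted p = 0.0465), where 30.2% of all tested genes were called, 19.4% lower. That call was lost in 10 of 19 alternatives, including without either array of WT Tregs (adjusted p = 0.105 and 0.16), of WT-transduced cells (0.0616 and 0.185) or of M176 Tregs (0.0551 for each). Arrays were separate downwards for Psmb8 and Psmb9 and upwards for Tap1 and Tapbp, as for 39.1% and 25.3% of all genes. Psmb9 differed by -0.26 (adjusted p = 0.318), Psmb10 by 0.12 (adjusted p = 0.599) and Tapbp by 0.27 (adjusted p = 0.195). B2m differed by 0.01 (95% interval -0.25 to 0.26) and Tap2 by 0.02 (95% interval -0.28 to 0.31).

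Ordered by mean log2 intensity, M176 Tregs were highest of the 6 groups for each immunoproteasome subunit and for B2m, and lowest for Tap1, Tap2 and Nlrc5. The gaps that set them lowest were 0.20 (SE 0.13) for Tap1, 0.19 (SE 0.15) for Nlrc5 and 0.07 (SE 0.14) for Tap2. For Psmb10 the gap to the next group, transduced cells with M354, was 1.11 (SE 0.15), and the other neighbours in the order were 0.17 apart or less. For Psmb8 the gap between M176 Tregs and the next group was 0.35 (SE 0.16), and for Psmb9 it was 0.16 (SE 0.19), which is within the spread. WT Tregs were the lowest group for Psmb8 and Psmb9. Neighbouring groups of B2m were 0.10 apart at most (SE 0.12) and those of Tap2 also 0.10 (SE 0.14).

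Other genes of the proteasome moved with the subunits in M176 Tregs. Of 12 activator, assembly and constitutive catalytic genes listed, 9 were on the array and 8 were tested, and 5 of them rose and 0 fell in M176 Tregs against WT Tregs, where 13.4% of all genes rose. Their median log2 difference was 0.63, beside -0.04 over all genes. The assembly factors Psmg2, Pomp and Psmg4 rose by 0.86, 0.72 and 0.66 (adjusted p = 0.000294, 0.00141 and 0.00151). Psmb5, the constitutive subunit that Psmb8 replaces, averaged 2904 ± 230 in M176 Tregs and 1817 ± 117 in WT Tregs (SD, n = 2 each) and rose by 0.68 (adjusted p = 0.00124). Psme1, a subunit of the PA28 activator, averaged 2793 ± 138 in M176 Tregs and 1833 ± 168 in WT Tregs and rose by 0.61 (adjusted p = 0.00501), while its partner Psme2 differed by 0.24 (adjusted p = 0.173).

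The same 5 genes were lower in M354 Tregs than in M176 Tregs, where 18.1% of all genes tested were lower, with a median over the list of -0.59. In M354 Tregs against WT Tregs limma called none of the 8, beside 1.81% of all genes tested, 0 had an unadjusted p under 0.05 and the median was 0.08. None was called in transduced cells either, beside 1.33% of all genes tested with M354 against WT and 0.516% with M176 against WT. There 6 of the 8 had an unadjusted p under 0.05 with M354 against WT, beside 1014 of 8918 genes tested, with all 8 above 0 and a median of 0.30. With M176 against WT 3 of the 8 did, beside 527 of 8918, with 7 above 0 and a median of 0.26. The effect of M176 was greater in Tregs than in transduced cells for Pomp (0.82, adjusted p = 0.0235) and Psmg2 (0.69, adjusted p = 0.0448), and not for the other 6 at this threshold. Among all genes tested 4.03% passed in that direction. With the small RNA level as a covariate 1 of the 8 was called in M176 Tregs against WT Tregs, Psmg2 (log2 1.11, adjusted p = 0.0109). In the other alternatives between 4 and 7 were called higher, and none lower.

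**Figure D4:**
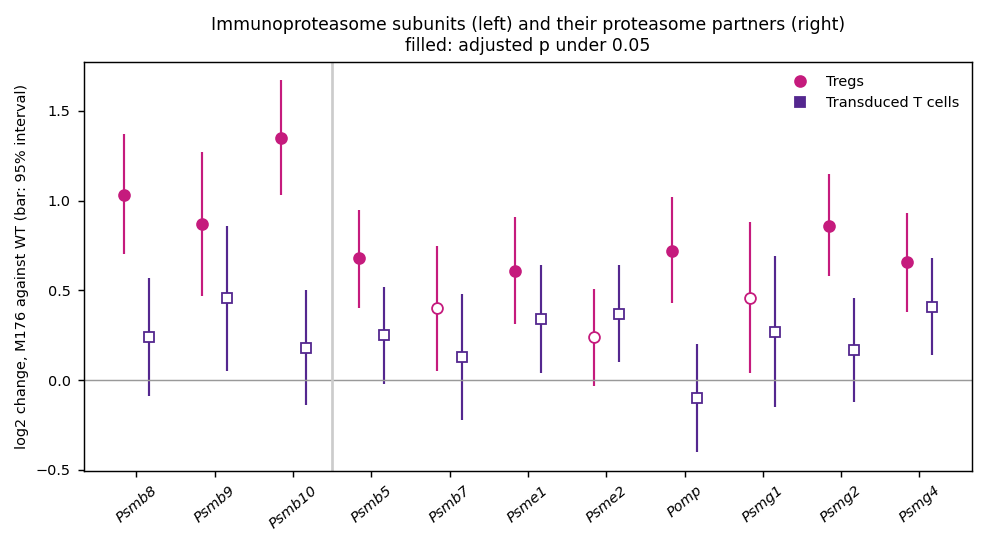
Log2 difference of M176 against WT with its 95% interval, in Tregs (circles) and transduced cells (squares), for the immunoproteasome subunits left of the grey line and the 8 tested partner genes right of it, filled where the adjusted p was under 0.05. In Tregs 5 of the 8 partners are filled, from 0.61 for Psme1 to 0.86 for Psmg2, and in transduced cells none is.

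Of genes that trim and load peptides, 5 were tested, and 1 rose in M176 Tregs against WT Tregs, where 13.4% of all genes did. This was Erap1, the aminopeptidase that trims peptides in the endoplasmic reticulum (772.5 ± 58.1 in M176 Tregs and 557.3 ± 62.5 in WT Tregs, SD, n = 2 each, log2 0.47, adjusted p = 0.0238). Among other class I and class I-like genes 12 of 24 listed were on the array and 8 were tested. H2-M3, which presents formylated peptides, rose by 0.35 (adjusted p = 0.0468), and the other 7 did not pass, so that both counts are near the share over all genes.

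In M354 Tregs against M176 Tregs 4 of those 8 were lower, H2-K2 by -0.72, H2-T24 by -0.50, H2-T10 by -0.49 and H2-M3 by -0.34 on the log2 scale, where 18.1% of all genes were lower. H2-K2 was also the single gene of this list called in M354 Tregs against WT Tregs, where 0.919% of all genes were lower, at 354.2 ± 57.2 in M354 Tregs and 519.3 ± 4.68 in WT Tregs (SD, n = 2 each, log2 -0.56, adjusted p = 0.0444), and it is named here after its values were seen. Class I genes are close copies of each other, so signal on one probe set may come in part from another gene.

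Of 17 tested genes upstream of class I expression, 2 rose and 1 fell in M176 Tregs against WT Tregs, shares near the 13.4% and 11.3% over all genes: Socs3, an inhibitor of cytokine signalling, by 0.55, the CCAAT-binding subunit Nfyc by 0.46, and the interferon receptor kinase Tyk2, which fell by 0.35. In M354 Tregs against M176 Tregs 2 were higher and 4 lower, beside 12.7% and 18.1% of all genes, among them the class I and II promoter factor Rfx5 at 0.53, the interferon gamma receptor chain Ifngr2 at -0.61 and Socs3 at -0.94.

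The interferon response list had 27 tested genes, of which 8 rose and 3 fell in M176 Tregs against WT Tregs, where 13.4% of all genes rose and 11.3% fell, with a median of 0.19 beside -0.04 over all genes. The 6 largest of these changes were rises of Ifi27l2a (1.35), Rtp4 (0.92), Ifit1 (0.82), Ifit3 (0.76) and Usp18 (0.61) and a fall of the guanylate-binding protein gene Gbp7 (-0.60). The other 5 called genes changed by between -0.47 and 0.55. In M354 Tregs against M176 Tregs 1 was higher and 12 were lower, beside 12.7% and 18.1% of all genes. In WT Tregs against WT-transduced cells 13 of the 27 were higher and 1 lower, beside 10.9% and 19.4% of all genes, with Ifit1 at 2.25, Usp18 at 2.14 and Oasl2 at 1.78, and no immunoproteasome subunit was called higher there.

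Small nucleolar and Cajal body RNAs rose in the same arrays as the immunoproteasome subunits. In M176 Tregs against WT Tregs 21 of 36 tested rose and 0 fell, where 13.4% of all genes rose and 11.3% fell, with a median of 1.15. The mean log2 intensity of Psmb8, Psmb9 and Psmb10 was 10.78 and 10.67 in M176 Tregs, 9.68 and 9.88 in M354 Tregs and 9.75 and 9.53 in WT Tregs. In transduced cells it was 10.22 and 10.10 with M354, 10.21 and 10.04 with M176 and 9.92 and 9.75 with WT Foxp3. Within the transduced groups the array with the higher small RNA level had the higher subunit mean with M354 and the lower one with M176 and with WT.

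**Figure D5:**
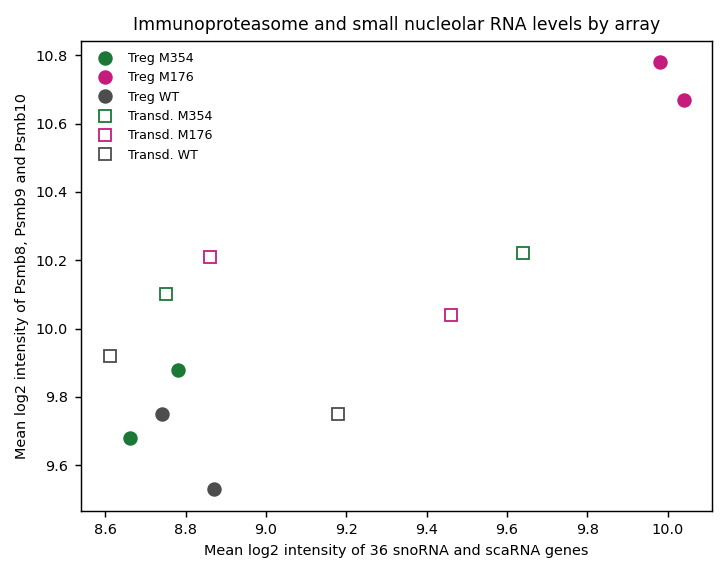
Mean log2 intensity of Psmb8, Psmb9 and Psmb10 against the mean log2 intensity of small nucleolar and Cajal body RNA genes, 1 point per array, coloured by allele, with filled circles for Tregs and open squares for transduced cells. Both M176 Treg arrays lie at the upper right, at 10.78 and 10.67 against 9.98 and 10.04, and the M354 and WT Treg arrays at the lower left.

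Within the set, the 3 subunits followed the mean profile of the 8 genes over the 12 arrays, with Pearson r of 0.93 for Psmb9, 0.76 for Psmb8 and 0.75 for Psmb10. Tap1 and Nlrc5 ran against it, at -0.35 and -0.43, and B2m, Tap2 and Tapbp stood between -0.12 and 0.30. Each gene is part of the mean it is compared with, and arrays of a group share their condition. The 5 genes outside the set whose profile was most like that mean were Rpl36 (r = 0.955), Timm50 (0.946), Nubp2 (0.946), Gnb2 (0.944) and 1110038F14Rik (0.943), over 12 arrays.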

How the data were processed

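Expression was measured on 12 arrays in 6 groups of 2, grouped by the labels. Per the submitters' processing notes, the authors used Affymetrix Power Tools and RMA. The deposited values are linear intensities for 20716 probe sets on each array. The genome build, probe library version, scan dates and slides are not given in the sources used for this work. No depth is defined for an array, and 2 arrays per group limit the precision.

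Probe sets were named by the platform annotation (17703 with 1 symbol, 1246 with several, 1767 with none). The brightest singly named probe set stood for each gene. Genes above the median of their own array on at least 2 of 12 arrays were tested, 8918 in all. The log2 of each deposited intensity entered a linear model in limma 3.58.1 (R 4.3.3), with 1 mean per group and all arrays in the fit (6 residual degrees of freedom, prior 10.9). The 9 comparisons were each adjusted by Benjamini-Hochberg over all genes tested, and a call is an adjusted p under 0.05. Means and SD are of linear intensities, and differences are of log2 values, given beside the fold where printed.

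In data simulated for M176 Tregs against WT Tregs, 94% of 100 genes changed by 1 log2 unit were recovered, and 25% of 100 changed by 0.5. The simulation held 8918 genes, changed ones included, and 6 unchanged genes were called. Far fewer genes were changed there than the 24.7% called in the data. The adjustment was therefore stricter in the simulation, and its recovery need not hold for the data. The listed genes, the partner and marker lists and the tests were chosen with earlier results of these data known. All listed members with a value of their own were tested in every comparison, though not every value is printed. Apart from Psme2, partner genes are named from the called ones, the 6 of largest change per list and comparison at most, with some of these given by count alone. Deviations of samples with the same replicate number correlated between groups at -0.55 to 0.25, and the samples were not paired. Whether arrays of different groups share a source of deviation was not tested. Alternatives were quantile and cyclic loess normalization, other filters, the mean of a gene's probe sets, a replicate block, the arrays of 1 system alone, the small nucleolar RNA level as a covariate, and leaving out each array. The fit over single probe sets was added after the data were seen.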

Additional observations from a re-analysis of the deposited data

Results flagged for a closer look

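The effect of M176 against WT differed between Tregs and transduced cells for 2 of the 8 genes, by a test of the difference itself. Both were higher, where 5.49% of all tested genes passed, 4.03% higher. For Psmb10 the log2 effect was 1.35 in Tregs and 0.18 in transduced cells, a difference of 1.17 (SE 0.21, limma adjusted p = 0.0045). For Psmb8 it was 1.03 in Tregs and 0.24 in transduced cells, a difference of 0.79 (SE 0.22, limma adjusted p = 0.046). The Psmb8 call was lost in 11 of 19 alternatives, while the Psmb10 call held in all 19. The M176 Treg arrays also had the highest small nucleolar RNA level and the lowest Foxp3 intensity of the 6 groups, and the part of either in these differences was not tested. With the small RNA level as a covariate the Psmb10 difference remained called, and the Psmb8 difference was 0.40 and was not called. That fit cannot separate the small RNA level from the M176 Treg group, since among Tregs only the M176 arrays were high. Foxp3 intensity was not used as a covariate.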

How the results depend on the processing

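The values and counts of the 8 genes were recomputed under 20 alternatives, or 19 for comparisons across systems, and none of their called values changed sign. Of the partner lists, the proteasome count alone was recomputed, in M176 against WT Tregs. Called values of the other partner genes and of single Nlrc5 probe sets were not. The count of called genes among the 8 in M176 against WT Tregs was 4 and became 2 with the small nucleolar RNA level as a covariate, 3 with the replicate block or the mean of a gene's probe sets, 5 with quantile or cyclic loess normalization, where Tap1 joined, and 3 to 4 when single arrays were left out. In M354 against M176 Tregs it was 4 and became 2 with that covariate, with 2 to 5 when single arrays were left out, the lowest without M176 Treg replicate 1. In WT Tregs against WT-transduced cells it was 1 and became 0 with cyclic loess, with the filter at percentile 75 and with the replicate block, and was 0 to 1 without single arrays. For the difference between systems in the M176 effect it was 2 and became 1 with quantile normalization, cyclic loess, no filter, the replicate block and the covariate, and was 1 to 2 without single arrays. The labels state no pairing by replicate number, and correlations of deviations between groups ran from -0.55 to 0.25. The block changed the calls of Nlrc5 in M176 against WT Tregs (adjusted p = 0.0588) and of Psmb8 in WT Tregs against WT-transduced cells (0.155) and in the difference between systems (0.0788), and no other call among the 8 genes. The cause of these changes was not tested. Over all genes, the number of calls in M354 against WT Tregs was 161, and 70 without M354 Treg replicate 1 to 277 after quantile normalization. In M176 against WT Tregs it was 2206, and 364 with the covariate or 909 without M176 Treg replicate 1, and in M354 against M176 Tregs it was 2747 and 570 with the covariate. In transduced cells it was 119 for M354 against WT (at least 40), 46 for M176 against WT (at least 22) and 7 for M354 against M176 (0 to 18). In WT Tregs against WT-transduced cells it was 2696 (1339 with the filter at percentile 75), and for the differences between systems 96 for M354 (at least 54) and 490 for M176 (138 without M176 Treg replicate 1). The count of proteasome partner genes that rose in M176 against WT Tregs was 5, and 1 with the covariate, an alternative added after the data were seen. Tapbp in WT Tregs against WT-transduced cells passed after quantile normalization alone (log2 0.40, adjusted p = 0.0499). With 2 arrays a group, differences near 0.5 on the log2 scale were often missed in simulated data, in which far fewer genes were changed than were called in the M176 Treg comparisons.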
